A study of Mus musculus with 21 samples.

Results

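A set of 8 genes that mark mast cells were followed through both tissues of the study: 4 granule proteases (Mcpt4, Cma1, Tpsb2 and Cpa3), 2 chains of the high-affinity IgE receptor (Fcer1a and Ms4a2), the histamine-forming enzyme Hdc and the receptor Mrgprb2. They were chosen by name, as the genes whose symbol in the count tables of skin and of lymph node is one of these 8, and all 8 of 8 were found among the 55491 genes listed in each table. Expression was measured by poly-A RNA sequencing in 9 libraries of whole skin and 12 of inguinal lymph nodes, which drain the skin. Skin came from untreated mice aged 12 months: 3 libraries of BALB/c wild-type skin (WT), 2 of nonlesional skin (NL) and 4 of lesional skin (L) from Ifnk TG mice. Lymph nodes came from WT and Ifnk TG mice left unirradiated (NoTx) or given 250 mJ/cm2 of UVB at 310 nm on 3 days per week for 2 weeks and then observed for 2 weeks, with 3 libraries in each of these 4 groups. The Ifnk TG mice carry an Ifnk transgene driven by the keratin 14 promoter of basal keratinocytes, which was made on C57BL/6 and then backcrossed to BALB/c. No sex, body site, mouse or, for lymph nodes, age is attached to a library in the labels, which assign 1 batch to all libraries, and the study used mice of both sexes. The irradiated node groups are described as having as many mice as libraries. For the other groups the sources used here do not say that the libraries came from separate mice, so p-values there measure the spread between libraries, which may be technical.

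Mast cells are resident cells of connective tissue that store histamine and proteases bound to proteoglycan in their granules. When antigen crosslinks IgE held by the Fc epsilon RI receptor, the granules are released within minutes. In the skin of mice most mast cells are of the connective tissue type, which contains chymases, tryptases and carboxypeptidase A3 and also carries Mrgprb2, a receptor for basic peptides and drugs that triggers granule release without IgE.

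Promoter sequences are shown for 4 members that behaved differently in lesional skin: Fcer1a and Ms4a2, which were higher there than in nonlesional skin, Mrgprb2, which was lower, and the protease gene Cpa3, whose groups overlapped. RefSeq (GRCm38.p6) gave a promoter for 7 of the 8 members, all except Tpsb2. Each line gives the 250 bases before the start of transcription, 5′ to 3′ on the minus strand of the reference, which is not the BALB/c sequence. The windows are chr1:173227230-173227479 for Fcer1a, chr19:11623720-11623969 for Ms4a2, chr7:48558087-48558336 for Mrgprb2 and chr3:20242182-20242431 for Cpa3. Capitals mark the letters GATAA, which GATA factors recognise, or their reverse TTATC, and the letters CATGTG or their reverse CACATG, one form of the E-box that MITF recognises.
Fcer1a: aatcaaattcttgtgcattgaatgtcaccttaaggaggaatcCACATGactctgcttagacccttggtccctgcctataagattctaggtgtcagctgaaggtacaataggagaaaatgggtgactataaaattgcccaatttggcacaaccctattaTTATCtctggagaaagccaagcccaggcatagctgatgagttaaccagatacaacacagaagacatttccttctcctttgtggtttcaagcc
Ms4a2: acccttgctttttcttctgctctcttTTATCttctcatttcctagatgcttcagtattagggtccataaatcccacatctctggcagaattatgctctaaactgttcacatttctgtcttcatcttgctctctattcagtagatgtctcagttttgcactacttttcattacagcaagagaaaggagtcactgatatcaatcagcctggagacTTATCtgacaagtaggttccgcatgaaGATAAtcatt
Mrgprb2: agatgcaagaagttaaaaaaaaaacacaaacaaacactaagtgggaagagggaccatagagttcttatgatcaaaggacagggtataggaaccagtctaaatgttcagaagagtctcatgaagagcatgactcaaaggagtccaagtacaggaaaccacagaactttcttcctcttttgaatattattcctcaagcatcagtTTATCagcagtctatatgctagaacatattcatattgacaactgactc
Cpa3: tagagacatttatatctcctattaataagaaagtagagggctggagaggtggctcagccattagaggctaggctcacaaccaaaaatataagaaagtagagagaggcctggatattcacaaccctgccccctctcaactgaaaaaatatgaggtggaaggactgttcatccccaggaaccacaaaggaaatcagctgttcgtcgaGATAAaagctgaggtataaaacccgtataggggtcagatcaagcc

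With 50 further bases after the start included and both strands read, GATAA was found in the promoters of 6 of the 7 members, all except Hdc, against 25.4% of 32851 RefSeq promoters of the same length. Ms4a2 held these letters 3 times, with first bases 224, 37 and 10 bases before the start, and the other 5 promoters held them once, Cpa3 at 45, Mrgprb2 at 48, Fcer1a at 92, Mcpt4 at 102 and Cma1 at 194 bases before the start. CATGTG was found in 1 member, Fcer1a, at 208 bases before the start, against 14.2% of all promoters. The palindrome CACGTG, another E-box that MITF recognises, was found in 0 of the 7 and in 7.15% of all promoters. The 3 motifs do not overlap one another in the sequences shown. GATAA was thus present in the promoters of members that were higher, lower and not called in lesional skin, and a match of these letters is a description of the window only.

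In GRCm38 the members lie on 7 chromosomes, all as protein-coding genes. Mcpt4 (ENSMUSG00000061068) spans chr14:56059629-56062313 and Cma1 (ENSMUSG00000022225) chr14:55941451-55944675, both within the chymase locus on the minus strand. Tpsb2 (ENSMUSG00000033825), at chr17:25366305-25369098, is on the plus strand. Cpa3 (ENSMUSG00000001865) spans chr3:20215620-20242181, Fcer1a (ENSMUSG00000005339) chr1:173221284-173227214 and Ms4a2 (ENSMUSG00000024680) chr19:11615523-11623719, all on the minus strand. Hdc (ENSMUSG00000027360), at chr2:126593667-126619299, and Mrgprb2 (ENSMUSG00000050425), at chr7:48550965-48558086, are also on the minus strand. Mcpt4 and Cma1 have related neighbours, and Tpsb2 is a close copy of Tpsab1. Reads that fit several copies were divided between them by the authors' estimation, so the split within each pair is uncertain.

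Levels are given as CPM, the counts of a gene relative to the TMM-scaled total of its library. The libraries held between 40499078 and 56511276 counts in skin and between 27599809 and 36428435 in lymph nodes, so 3 counts correspond to between 0.0531 and 0.0741 CPM in skin and between 0.0824 and 0.109 CPM in lymph nodes. All 8 members passed the filter on low counts in skin, with 17 counts or more in every library, and 5 passed it in lymph nodes. Counts of Ifnk itself were 0 in all 3 WT skin libraries, 6 and 0 in NL and between 5 and 14 in L, so NL replicate 3 did not show the transgene, and they were 0 in all 12 node libraries, where the gene does not check the genotype. Each comparison was tested with edgeR's quasi-likelihood F-test, a gene was called higher or lower at a Benjamini-Hochberg adjusted p under 0.05 over all genes tested, and errors of log2 fold changes are standard errors. L versus WT and L versus NL share the 4 L libraries.

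In lesional skin Fcer1a was higher and Mrgprb2 lower than in both other skin groups, Ms4a2 was higher than in NL skin and overlapped WT, and the granule proteases did not pass the test. Against WT skin, Fcer1a was called higher and Mrgprb2 lower, 1 of 8 members in each direction, beside 23% of the 19101 tested genes called higher and 20.2% called lower. Against NL skin, Fcer1a and Ms4a2 were called higher and Mrgprb2 lower, beside 13.2% of tested genes called higher and 11.8% called lower. The median log2 fold change of the 8 members was -0.11 against WT and 0.39 against NL, where the medians of all tested genes were 0.06 and 0.03. The members' counts were thus not far from those of skin genes in general. In bulk tissue, fewer cells of a type and less RNA per cell cannot be told apart.

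**Figure D1:**
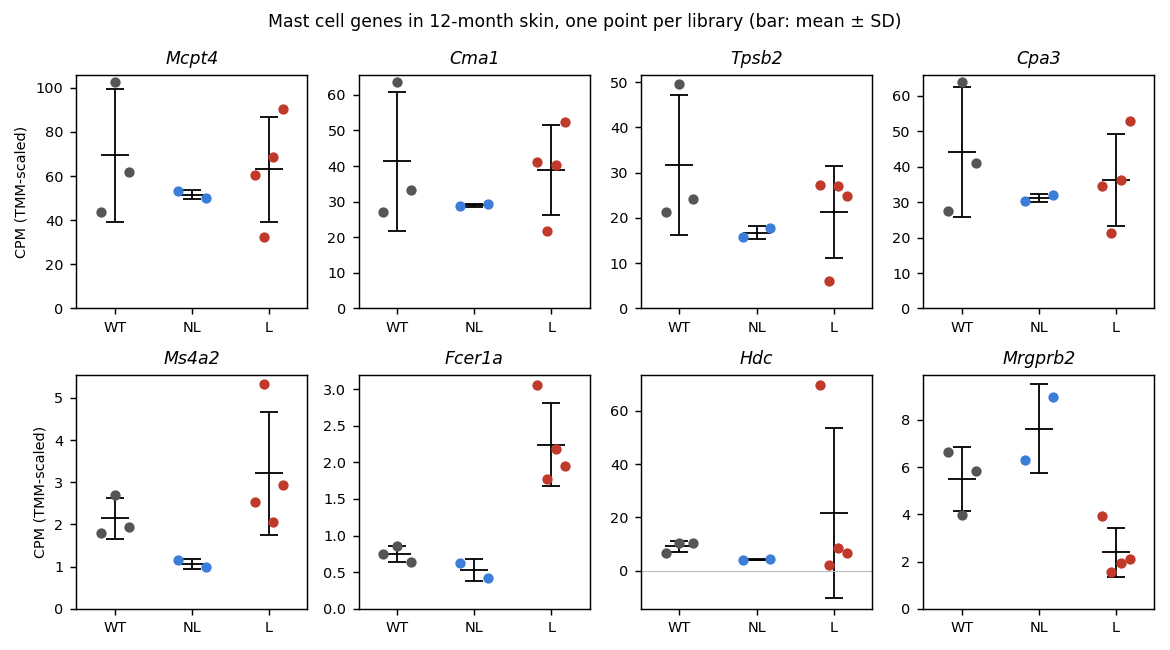
CPM (TMM-scaled, linear axes) of each of the 8 mast cell genes in skin of 12-month-old WT, NL and L mice, with 1 point per library and bars for mean ± SD (n = 3, 2 and 4). The L points of Fcer1a lie above all others, those of Mrgprb2 below all others, 1 L point of Hdc stands at 69.5 CPM, and the protease groups overlap.

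Fcer1a encodes the IgE-binding alpha chain of the receptor. Its levels were 0.753, 0.855 and 0.643 CPM in the WT libraries, 0.631 and 0.417 CPM in the NL libraries and 3.06, 1.78, 2.18 and 1.95 CPM in the L libraries. Every L library was above every other skin library, although the counts behind these values were low, between 17 and 36 in WT and NL and between 72 and 168 in L. Fcer1a rose 2.98-fold over WT (log2 fold change 1.58 ± 0.30, edgeR adjusted p = 0.00352) and 4.24-fold over NL (2.09 ± 0.36, edgeR adjusted p = 0.00517). Of all tested genes, 26% likewise had every L library above every WT library, and 24.7% had every L library above both NL libraries. The call against WT held with any single library left out, and that against NL was lost without NL replicate 3 (edgeR adjusted p = 0.0591).

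Ms4a2 encodes the beta chain, which amplifies signalling through the receptor. Its levels were 1.80, 2.71 and 1.93 CPM in WT, 1.15 and 0.981 CPM in NL and 2.53, 5.33, 2.05 and 2.94 CPM in L. The L libraries were all above the NL libraries, as they were for 24.7% of all tested genes. They overlapped the WT libraries, and L replicate 5 was the highest. Ms4a2 rose 3.01-fold over NL (log2 fold change 1.59 ± 0.43, edgeR adjusted p = 0.0273), and the difference from WT was 0.58 ± 0.35 (edgeR adjusted p = 0.213). The call against NL rested on the NL libraries: the edgeR adjusted p was 0.128 without NL replicate 2 and 0.169 without NL replicate 3. Fcer1g, the signalling gamma chain that other Fc receptors share, had a log2 difference of -0.09 ± 0.31 from WT (edgeR adjusted p = 0.833) and is named here after its values were seen.

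Basophils carry the same receptor, and their markers were near 0 in skin. The granule protease genes Mcpt8 and Prss34 had 0 counts together in each WT library, 1 and 0 in the NL libraries and 0, 1, 2 and 4 in the L libraries. Neither basophil gene passed the filter, and the part of basophils in the levels of Fcer1a and Ms4a2 was not tested.

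Mrgprb2, the receptor for basic secretagogues, moved the other way. Its levels were 6.64, 3.99 and 5.84 CPM in WT, 6.29 and 8.95 CPM in NL and 3.92, 1.58, 1.94 and 2.11 CPM in L. All L libraries were below all others, but L replicate 4, at 3.92 CPM, lay just under WT replicate 9, at 3.99 CPM. Mrgprb2 was 2.29-fold lower in L than in WT (log2 fold change -1.20 ± 0.34, edgeR adjusted p = 0.0193) and 3.18-fold lower than in NL (-1.67 ± 0.37, edgeR adjusted p = 0.0127). Every L library was below every WT library for 23.4% of tested genes and below both NL libraries for 24.7%. The call against WT was lost without WT replicate 8 (edgeR adjusted p = 0.0700) or WT replicate 10 (0.0578), and that against NL without NL replicate 3 (0.114). The related gene Mrgprb1, named after its values were seen, differed from WT by -0.39 ± 0.29 on the log2 scale (edgeR adjusted p = 0.303).

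**Figure D2:**
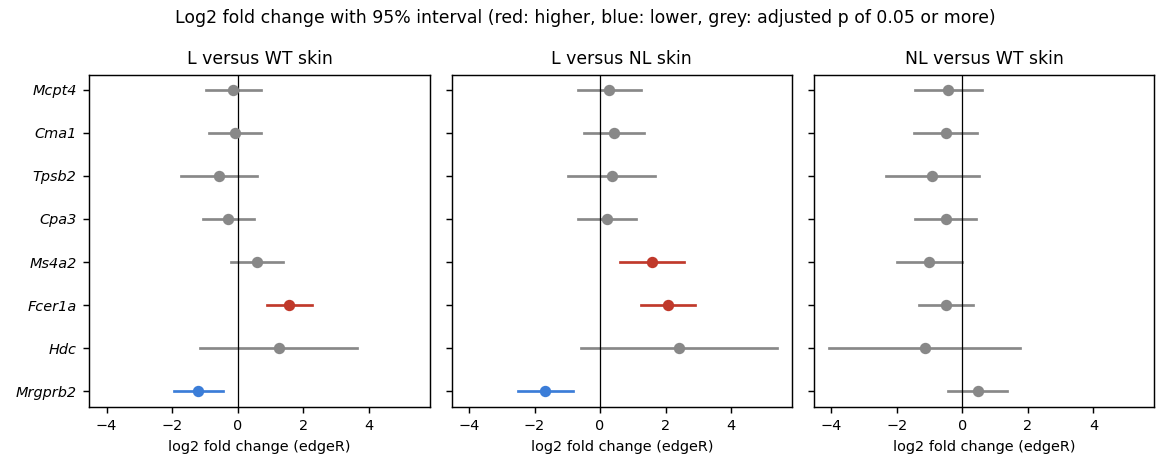
Log2 fold changes (x axis) of the 8 mast cell genes in the 3 comparisons of skin groups, with 95% intervals from edgeR. Fcer1a is higher and Mrgprb2 lower in L against both WT and NL, Ms4a2 is higher against NL, and in the comparison of NL with WT all 8 points are grey.

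The granule proteases had no call in any skin comparison. Mcpt4, a chymase of connective tissue mast cells, stood at 43.5, 102 and 62.0 CPM in WT, 53.2 and 50.1 CPM in NL and 60.6, 32.3, 68.8 and 90.3 CPM in L. The L libraries reached both below and nearly as high as the WT libraries, and the log2 difference was -0.14 with a 95% interval from -0.98 to 0.70 (edgeR adjusted p = 0.785). Cma1, mast cell chymase, stood at 27.2, 63.6 and 33.3 CPM in WT, 28.7 and 29.3 CPM in NL and 41.2, 21.7, 40.3 and 52.3 CPM in L. Its log2 difference of L from WT was -0.09, with an interval from -0.88 to 0.70 (edgeR adjusted p = 0.856), and the groups overlapped.

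Cpa3, carboxypeptidase A3, stood at 27.6, 63.9 and 41.1 CPM in WT, 30.4 and 31.9 CPM in NL and 34.7, 21.4, 36.2 and 53.0 CPM in L. Its groups overlapped too, with a log2 difference of L from WT of -0.28 and an interval from -1.05 to 0.49 (edgeR adjusted p = 0.527). Tpsb2, the tryptase Mcpt6, stood at 21.3, 49.5 and 24.1 CPM in WT, 15.7 and 17.7 CPM in NL and 27.3, 6.09, 27.1 and 24.7 CPM in L. Here L replicate 5 was below every other skin library and the rest of the L libraries lay within the WT range, with a log2 difference of -0.57 and an interval from -1.72 to 0.58 (edgeR adjusted p = 0.389). These intervals do not show that protease levels were alike. Against NL, the 4 log2 differences lay between 0.22 for Cpa3 and 0.42 for Cma1, with edgeR adjusted p-values from 0.472 to 0.713.

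Hdc, which makes histamine from histidine, had 1 library far from the rest. It stood at 6.61, 10.2 and 10.4 CPM in WT, 3.96 and 4.24 CPM in NL and 69.5, 2.22, 8.44 and 6.58 CPM in L. L replicate 4 held the 69.5 CPM, whereas L replicate 5 was the lowest skin library. The log2 difference of L from WT was 1.26 with an interval from -1.14 to 3.65 (edgeR adjusted p = 0.361), and without L replicate 4 it turned to -0.66 (edgeR adjusted p = 0.261). Neutrophils and other myeloid cells can also express Hdc, and the summed level of a list of 10 neutrophil genes was 573 CPM in L replicate 4, between 65.4 and 145 CPM in the other L libraries and between 12.5 and 20.9 CPM in WT and NL. The part of these cells in the Hdc level was not tested.

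Between NL and WT skin, 0 members were called by edgeR or by DESeq2, beside 0% of tested genes called higher and 0% called lower by edgeR. At an unadjusted p under 0.05 edgeR counted 1 member, Ms4a2, at a log2 difference of -1.01 ± 0.43 (edgeR adjusted p = 0.650). Of the 8 log2 differences, 7 were negative, with a median of -0.51, where the median of all tested genes was -0.001. Mrgprb2 alone was positive, at 0.47 ± 0.40 (edgeR adjusted p = 0.789). The NL group holds 2 libraries and the proteases varied together, so the 7 are not separate observations. The NL libraries lay below all WT libraries for Ms4a2, Fcer1a, Hdc and Tpsb2, as they did for 16.3% of all tested genes, and overlapped them for the other members.

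Levels were compared between members per kilobase of exon. In WT skin the order of mean CPM per kb was Mcpt4 (62.6 ± 27.2, SD, n = 3), Cma1 (38.0 ± 17.9), Cpa3 (29.1 ± 12.1), Tpsb2 (19.9 ± 9.72), Mrgprb2 (2.64 ± 0.654), Hdc (1.42 ± 0.334), Ms4a2 (0.763 ± 0.174) and Fcer1a (0.752 ± 0.106). The ranges of mean ± SD of neighbouring proteases overlapped, but these SDs are between libraries, and the proteases kept this order within each WT library. Ms4a2 was below Fcer1a in WT replicate 8 and above it in WT replicates 9 and 10. The step from Tpsb2 to Mrgprb2 was wider than the SDs. In L skin the mean of Fcer1a, at 2.25 ± 0.572 CPM per kb (SD, n = 4), was above those of Ms4a2, at 1.14 ± 0.518, and Mrgprb2, at 1.15 ± 0.502. In L replicate 5, however, Ms4a2, at 1.89 CPM per kb, was above Fcer1a, at 1.78.

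The proteases varied together from library to library. After each gene was centred on its group means, Pearson's r between log2 levels over the 9 skin libraries was 0.98 for Mcpt4 and Cma1, 0.98 for Mcpt4 and Cpa3, 0.97 for Cma1 and Cpa3 and between 0.83 and 0.91 for Tpsb2 with each of them. Ms4a2 had negative r with all 4, from -0.60 for Tpsb2 to -0.20 for Cpa3, and Fcer1a had r between 0.21 and 0.53. These values are descriptions over libraries that share depth and tissue composition. By the mean profile of all 8 members, the non-member genes most alike within groups were Zfand3 (r = 0.97), Cfap410 (0.97), Ascc1 (0.96), Acad8 (0.95) and Iqcc (0.95) of 14997 genes ranked over 9 libraries. None of these 5 is on a mast cell list, and 0 of them were among the 5 most alike without centring on the group means. Among the listed mast cell genes ranked, the highest was Il1rl1, the IL-33 receptor of mast cells, at rank 275 with r = 0.85. Others were far down, with Kit at rank 2955 (r = 0.47), Adora3 at 10948 (-0.28) and the lowest, Hpgds, at 11493 (-0.33). These 4 genes are named after their values were seen.

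**Figure D3:**
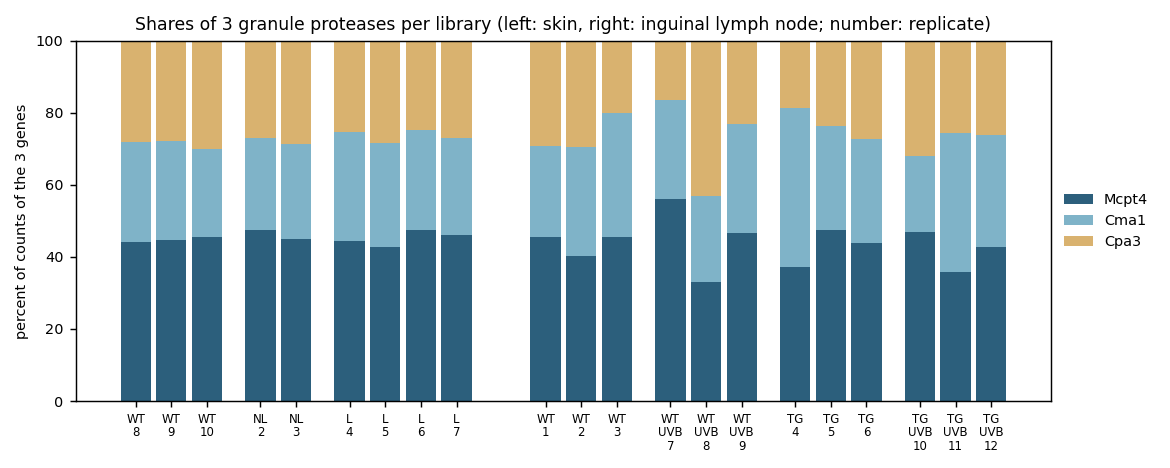
Shares of the counts of Mcpt4, Cma1 and Cpa3 (y axis, percent of the 3 genes together) in each of the 9 skin and 12 lymph node libraries, stacked per library. The 3 shares are nearly the same in every skin library and vary more in lymph nodes, where the bars rest on 84 to 287 counts.

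Because of this, the counts of the 3 proteases Mcpt4, Cma1 and Cpa3 were used as a common scale, a choice made after their values were seen, so that the ratios are descriptions with no test. Within this sum Mcpt4 took 45.3% ± 1.5 (SD, n = 9 skin libraries), Cma1 27.2% ± 1.73 and Cpa3 27.5% ± 1.62, and the lowest and highest shares of Mcpt4 were 42.8% and 47.3%. The sum held between 3058 and 10852 counts per skin library. Per 100 protease counts, Fcer1a had 1.77 ± 0.642 counts in L (SD, n = 4), 0.536 ± 0.205 in WT (n = 3) and 0.468 ± 0.132 in NL (n = 2), and the lowest L library, at 0.995, was above the highest of the others, at 0.765. Mrgprb2 had 1.84 ± 0.808 in L, 4.25 ± 2.51 in WT and 6.82 ± 1.73 in NL. On this scale L and WT overlapped for Mrgprb2, with WT replicate 9 at 1.73 and L replicate 4 at 2.87, and L and NL did not.

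On the same scale Ms4a2 had 7.06 counts per 100 in L replicate 5 and between 1.41 and 1.85 in the other L libraries, within the range of 1.18 to 1.83 of the WT libraries but for L replicate 4. Tpsb2 had 8.08 in L replicate 5 and between 12.7 and 20.0 in the other L libraries, against 17.7 to 21.7 in WT. L replicate 5 was thus low in Tpsb2 and high in the receptor beta chain relative to the same proteases. Tpsab1, the close copy of Tpsb2, had 2.13 in that library, within the range of 0.417 to 2.16 of the WT libraries. Hdc had 50.9 in L replicate 4 and between 2.94 and 7.62 in all other skin libraries.

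**Figure D4:**
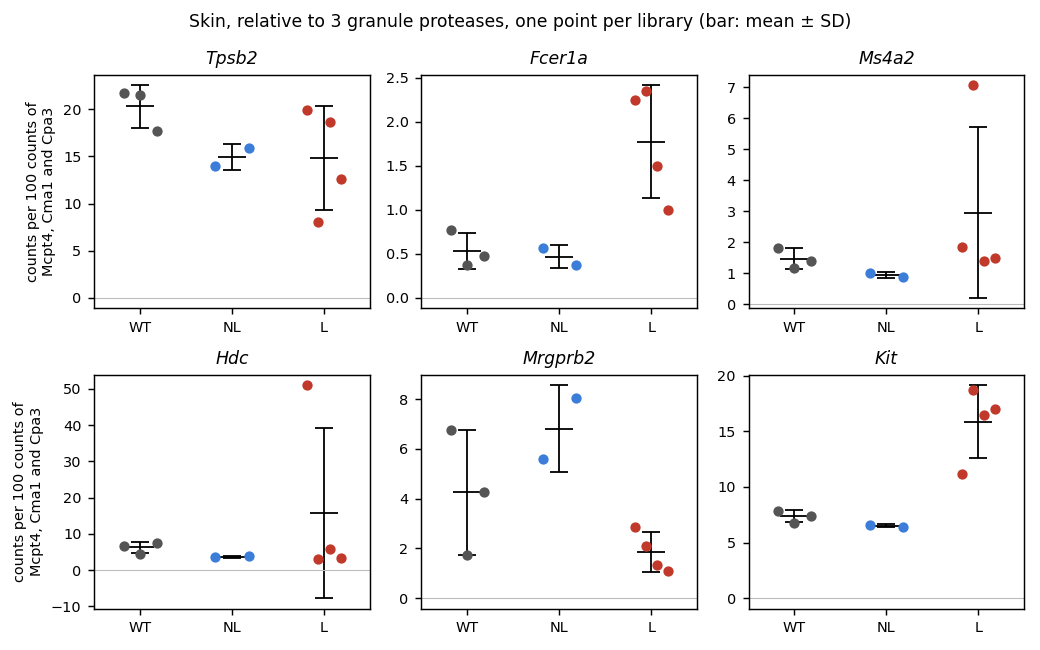
Counts of 5 mast cell genes and of Kit per 100 counts of Mcpt4, Cma1 and Cpa3 together (linear y axes) in each skin library, with bars for mean ± SD. Fcer1a and Kit are higher in all L libraries than in WT and NL, Mrgprb2 overlaps between L and WT, and Ms4a2 and Hdc each have 1 L library far above the rest.

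Other genes of mast cell biology were read from lists. Of 14 receptors and lineage factors, 13 were tested, of which 1 was called higher and 3 lower in L than in WT. Of all tested genes, 23% were called higher and 20.2% lower. Mitf, a transcription factor of mast cells and melanocytes, rose (log2 fold change 0.55 ± 0.16, edgeR adjusted p = 0.0230). The adenosine receptor gene Adora3 fell by 1.00 on the log2 scale (edgeR adjusted p = 0.00588), Enpp3, the basophil and mast cell surface enzyme CD203c, by 1.05 (0.0189) and Gata2, a transcription factor that mast cells need, by 0.76 (0.0272). The median of the list was -0.03. Against NL, 2 were called higher and 1 lower, beside 13.2% and 11.8% of all tested genes.

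Kit, the receptor for stem cell factor, is named here after its values were seen. It stood at 7.73, 15.6 and 10.1 CPM in WT, 7.42 and 7.11 CPM in NL and 15.2, 14.1, 23.9 and 33.3 CPM in L. It rose over NL (log2 fold change 1.58 ± 0.41, edgeR adjusted p = 0.0259) and differed from WT by 0.96 ± 0.35 (edgeR adjusted p = 0.0520), with 1 WT library inside the L range. Melanocytes also carry Kit and Mitf. The summed level of 5 melanocyte genes was 108, 98.5, 126 and 589 CPM in the L libraries and between 7.53 and 17.7 CPM in WT and NL. All 5 were called higher in L than in WT, beside 23% of all tested genes. L replicate 7 was the highest in Kit, in Mitf at 41.3 CPM and in the melanocyte sum, and the part of melanocytes in both genes was not tested.

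Of 11 genes of mediator synthesis and storage, all tested, 2 were called higher and 2 lower in L than in WT. The shares over all tested genes were 23% and 20.2%. Rab27b, which acts in granule release, rose by a log2 fold change of 1.22 ± 0.19 (edgeR adjusted p = 0.00138) and Tph1, which makes serotonin, by 1.51 ± 0.49 (0.0341). Ltc4s and Alox5, which act in leukotriene synthesis, fell by 1.22 (edgeR adjusted p = 0.00888) and 1.17 (0.0338) on the log2 scale. Of 6 genes for histamine receptors and breakdown, 5 were tested and 1 was called, Hnmt, the histamine-methylating enzyme. Hnmt stood at 35.4, 31.3 and 24.3 CPM in WT, 22.7 and 20.5 CPM in NL and 11.1, 3.77, 11.1 and 8.04 CPM in L, with all L libraries lowest. Of all tested genes, 23.4% had every L library below every WT library and 24.7% below both NL libraries. Hnmt fell by 1.83 on the log2 scale (edgeR adjusted p = 0.00299) against WT. Many other cells also use these enzymes.

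Of 13 genes that signal from Fc epsilon RI, all tested, 3 were called higher and 1 lower in L than in WT. The shares over all tested genes were 23% and 20.2%, and the median log2 fold change of the list was 0.14. The adaptor gene Lat rose by 1.43 ± 0.35 (edgeR adjusted p = 0.0108), the phospholipase gene Plcg2 by 0.95 ± 0.18 (0.00382) and the adaptor gene Lat2 by 0.90 ± 0.21 (0.00962), whereas the adaptor gene Gab2 fell by 0.35 (0.0174). T cells also use Lat, and 4 of 7 T cell genes were called higher in L. Among growth and attraction signals, the cytokine gene Il13 rose by a log2 fold change of 1.94 ± 0.57 (edgeR adjusted p = 0.0240) and the chemokine gene Cx3cl1 by 0.72 ± 0.25 (edgeR adjusted p = 0.0457). Of 7 other granule proteases 2 were tested and 0 called by edgeR, 0 at an unadjusted p under 0.05. The tryptase gene Tpsab1 had a log2 difference of 1.33 ± 0.82 (edgeR adjusted p = 0.224) and Ctsg, cathepsin G, of 2.58 ± 1.16 (edgeR adjusted p = 0.102).

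The L samples also differed from WT in what tissue they held. The study describes its lesions as mostly on the face. It took lesional skin wherever lesions were found, and nonlesional skin from the back and from areas like those of the lesions. The labels name no site for a library. The summed level of 9 skeletal muscle genes was between 26.6 and 7222 CPM in L and between 26117 and 38866 CPM in WT and NL, with 4 of 9 called lower against WT. That of 8 hair shaft keratins was between 1854 and 6080 CPM in L and between 0.573 and 1.86 CPM in WT and NL. All 8 were called higher in L than in WT, beside 23% of all tested genes. Of 7 endothelial genes, 4 were called lower, and of 7 fibroblast genes 1, beside 20.2% of all tested genes. The part of these tissues, or of body site, in the levels of Fcer1a, Ms4a2 and Mrgprb2 was not tested. When keratins and the muscle list were left out before scaling, Fcer1a (log2 fold change 1.58) and Mrgprb2 (-1.20) kept their calls against WT. Leaving these genes out changes the scaling only and cannot show the part of the tissues.

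In lymph nodes the proteases were measured at a few CPM and the receptors hardly at all. Mcpt4 ranged from 1.10 to 3.93 CPM over the 12 libraries, Cma1 from 0.795 to 2.20, Cpa3 from 0.553 to 2.68, Tpsb2 from 0.378 to 1.72 and Hdc from 0.153 to 1.27 CPM. In skin the lowest library of Mcpt4 held 32.3 CPM. The tables of the 2 tissues were scaled separately, and the nodes were pressed through a strainer before lysis, so levels in the 2 tissues were set side by side with no test. Fcer1a had between 0 and 5 counts per library, Ms4a2 between 0 and 6 and Mrgprb2 between 0 and 4, and these 3 members did not pass the filter.

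**Figure D5:**
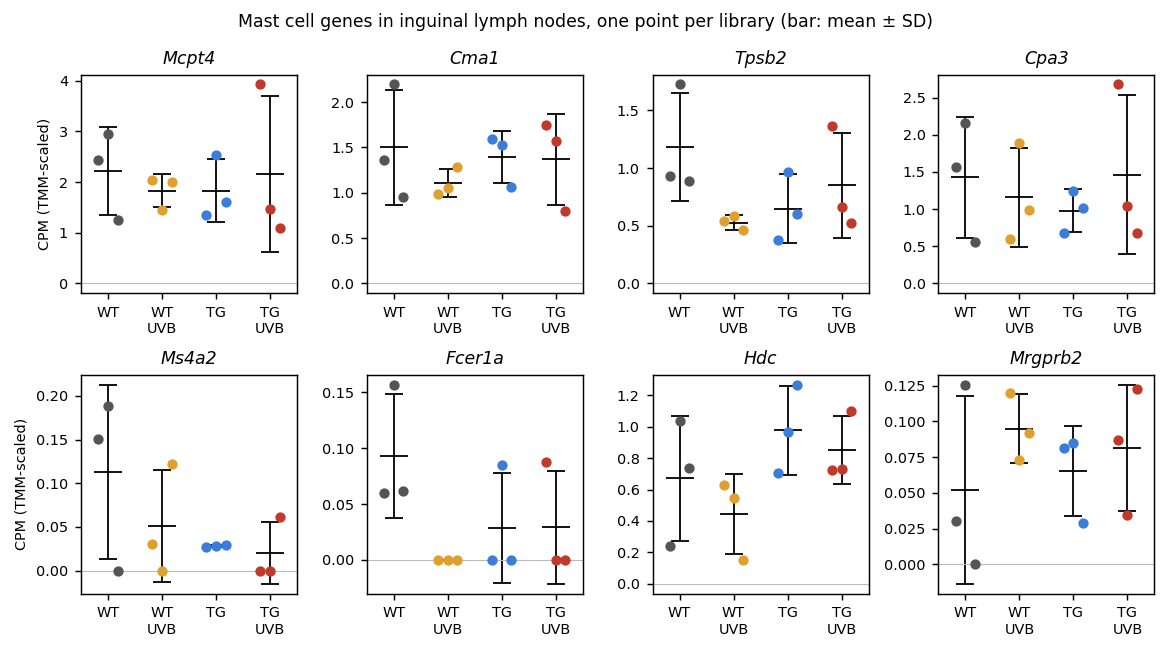
CPM (TMM-scaled, linear axes) of the 8 mast cell genes in inguinal lymph nodes of both genotypes without and with UVB, with 1 point per library and bars for mean ± SD (n = 3 per group). The groups overlap for nearly every gene, TG UVB replicate 10 and WT replicate 2 are often highest, and the values of Fcer1a, Ms4a2 and Mrgprb2 rest on 6 counts or fewer.

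UVB in WT mice changed 0 of the 5 tested members by edgeR, 1 at an unadjusted p under 0.05 and 0 by DESeq2, beside 2.92% of the 16173 tested genes called higher and 2.06% called lower. The member with the small unadjusted p was Tpsb2. It stood at 0.936, 1.72 and 0.890 CPM in unirradiated WT nodes and at 0.541, 0.582 and 0.460 CPM after UVB, so that the groups did not overlap, as was the case in this direction for 17.3% of all tested genes. The counts behind these values were between 29 and 55 without and between 15 and 18 with UVB. The log2 difference was -1.16 ± 0.46 (edgeR adjusted p = 0.135), and when only the WT libraries were fitted Tpsb2 was called lower (edgeR adjusted p = 0.0489). The related tryptase gene Tpsab1 differed by -2.45 ± 0.70 (edgeR adjusted p = 0.0603).

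In Ifnk TG nodes Tpsb2 stood at 0.378, 0.965 and 0.605 CPM without and 1.37, 0.661 and 0.520 CPM with UVB, and these groups overlapped. UVB changed 0 of the 5 members there by edgeR, 0 at an unadjusted p under 0.05 and 0 by DESeq2, beside 0% of tested genes in each direction. The interaction, which tests whether the UVB response differs between genotypes, called 0 members by edgeR, 1 at an unadjusted p under 0.05 and 0 by DESeq2, beside 0% of tested genes. That 1 was Tpsb2, at 1.56 ± 0.65 on the log2 scale (edgeR adjusted p = 0.848).

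Between genotypes, 0 of the 5 members were called without UVB and 0 after it, by edgeR and by DESeq2, 0 of them at an unadjusted p under 0.05, beside 0% of tested genes in either direction. Hdc stood at 0.631, 0.545 and 0.153 CPM in irradiated WT nodes and at 0.727, 0.731 and 1.10 CPM in irradiated Ifnk TG nodes, and these groups did not overlap. Its log2 difference was 0.95 ± 0.55 (edgeR adjusted p = 0.753). Every Ifnk TG library was above every WT library after UVB for 5.39% of all tested genes. Mcpt4 reached its highest node level, 3.93 CPM, in TG UVB replicate 10, where the other 2 libraries of that group held 1.46 and 1.10 CPM, and Cpa3 was also highest there, at 2.68 CPM. The 4 comparisons between node groups share libraries with one another.

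The proportions of the 3 proteases in lymph nodes were near those of skin, with more spread. Mcpt4 took 43.5% ± 6.22 of their counts (SD, n = 12 libraries), Cma1 30.3% ± 6.32 and Cpa3 26.2% ± 7.03. The highest share of Mcpt4 was 56.2% of 121 counts in WT UVB replicate 7 (95% Wilson interval from 47.3% to 64.7%), and the lowest was 33.1% of 121 counts in WT UVB replicate 8 (from 25.3% to 41.8%). The sum held between 84 and 287 counts per library, and such intervals cover counting error only. Centred on group means over the 12 node libraries, r between the 4 proteases was between 0.58 and 0.84, and r of Hdc with them was between -0.22 and 0.28.

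Among the listed genes in lymph nodes, 1 of 12 tested receptors and lineage factors and 1 of 5 tested growth signals were called after UVB in WT mice. Both are named here after their values were seen, beside 2.92% of all tested genes called higher and 2.06% called lower. Il1rl1, which regulatory T cells and other lymphoid cells carry as well as mast cells, rose by a log2 fold change of 1.00 ± 0.20 (edgeR adjusted p = 0.0261). Kitl, the gene for stem cell factor, fell by 1.44 on the log2 scale (edgeR adjusted p = 0.0355). The summed level of 7 fibroblast genes was between 48.2 and 67.8 CPM in unirradiated WT nodes and between 14.3 and 39.8 CPM in irradiated ones, with 1 of the 7 called lower, and its part in the levels of Kitl and Tpsb2 was not tested. Basophil genes had too few counts to be tested.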

How the data were processed

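RNA was measured in 9 skin and 12 inguinal lymph node libraries of 7 groups, taken from the labels. The authors sequenced poly-A libraries as paired reads and, per the labels, used cutadapt 4.8, STAR 2.7.8a with GRCm38 and RSEM 1.3.3. The deposited values are expected counts per gene, as whole numbers and not normalized. The annotation release is not given in the sources used here. Of 55491 Ensembl identifiers, 55227 were found in GENCODE M21, which gave positions and exon lengths, the scale of CPM per kb.

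The expected counts were analysed with edgeR 4.0.16 in R 4.3.3 (filterByExpr with at least 10 counts, TMM, robust quasi-likelihood fit of all libraries of a tissue, F-test), with 19101 skin and 16173 lymph node genes tested. DESeq2 1.42.0 was an alternative, beside other normalization, filters, robustness, an Xist covariate, fits of the compared groups alone, a threshold of 0.01, scaling without keratins and muscle genes, and each library left out. The scripts were tested on simulated data. All 8 members are reported. From each other list the text names up to 4 called genes with the largest change in L versus WT, or the 2 most abundant where none was called. The 5 most alike genes have the highest r with the members' mean log2(CPM + 0.1), at a mean CPM of at least 1. The members and lists were chosen with earlier results of these data known, so no count is independent support. A result on a listed gene is not reported here.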

Additional observations from a re-analysis of the deposited data

Results flagged for a closer look

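With 4 L libraries in skin, a single library stood apart from the other 3 by Dixon's test at the 95% level (critical value 0.829) for 2 of the 8 members. For Hdc it was L replicate 4, at 69.5 CPM (ratio of gap to range 0.908), which also had the highest summed neutrophil level, 573 CPM. For Tpsb2 it was L replicate 5, at 6.09 CPM (ratio 0.881). It was also the lowest L library for Mcpt4, Cma1, Cpa3, Fcer1a, Hdc and Mrgprb2, and the highest for Ms4a2. Chance alone gives such a result in about 1 in 20 independent groups. The 8 members examined share the same 4 libraries, and the proteases varied together, so they are not 8 independent groups. What sets these libraries apart was not tested.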

How the results depend on the processing

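Of 405 values of single members under alternatives that leave out no library of the compared groups, 400 kept their direction and side of the threshold. At an adjusted p under 0.01 the count of called members was 1 in L versus WT and 1 in L versus NL, both Fcer1a. With the compared groups fitted alone, 1 member was called after UVB in WT nodes (Tpsb2), and Ms4a2 lost its call in L versus NL (edgeR adjusted p = 0.0605). With single libraries left out, the count ranged from 1 to 2 in L versus WT and from 0 to 3 in L versus NL, and was 0 in each other comparison. The 0 came without NL replicate 3, which left 1 NL library whose spread is assumed to be like that of the other groups. The 22 values that turned sign all came from leaving out 1 library, and none was called. The cause was not tested. Depth limits Fcer1a, Ms4a2 and Mrgprb2 in lymph nodes, at 6 counts or fewer. No paired analysis was possible because the labels name no mouse for a library. The replicate numbers run on through the groups of a tissue, so they do not show whether L and NL skin came from the same mice. If they did, L versus NL ignores that pairing.

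Log2 differences of L from WT ranged over the left-out libraries from -0.39 to 0.24 for Mcpt4, -0.32 to 0.35 for Cma1, -0.53 to 0.068 for Cpa3 and -0.66 to 1.64 for Hdc, and those of L from NL from -0.017 to 0.41 for Cpa3. For UVB in WT nodes, Cpa3 ranged from -0.85 to 0.11. For UVB in Ifnk TG nodes the ranges were -0.51 to 0.54 for Mcpt4, -0.25 to 0.23 for Cma1, -0.13 to 0.78 for Tpsb2, -0.19 to 0.91 for Cpa3 and -0.44 to 0.028 for Hdc. Between genotypes, Cma1 ranged from -0.34 to 0.27 without UVB, and after UVB Mcpt4 ranged from -0.50 to 0.56 and Cpa3 from -0.40 to 0.89. The interaction ranged from -0.22 to 0.84 for Mcpt4 and from -0.050 to 0.82 for Hdc. TG UVB replicate 10, when left out, turned 6 of these. Without centring, 0 of the 5 most alike genes were shared.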
